A study of Mus musculus with 11 samples.

Results

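Expression of 8 genes of fibroblast growth factor (FGF) signalling was examined in mouse embryonic stem (ES) cells kept in 3 culture media. They were the ligand genes Fgf4, Fgf8, Fgf15 and Fgf17 and the receptor genes Fgfr1, Fgfr2, Fgfr3 and Fgfr4. The genes were taken as a list and found on the array through the RefSeq transcript accession given for each probe, and they are 8 of the 20964 genes with a named probe. They had 15 probes. One Fgf8 probe was left out because of an outlier flag on 1 array, and all 14 others passed the filter on dim probes.

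Unsorted ES cells of the 129/Ola background had been passaged at least 3 times in 1 of the media. The 2i/LIF medium is represented by 5 arrays, serum/LIF by 3 and KOSR/LIF by 3. LIF, leukaemia inhibitory factor, was in all 3 media. The inhibitors of 2i act on the kinases MEK and GSK3, and KOSR (knockout serum replacement) takes the place of serum. The cells were of the lines E14, HVJu5.1 and HVJu9.3, with 1 array of each line in serum/LIF and in KOSR/LIF, so the 5 arrays of 2i/LIF share 3 lines. Titles and source names disagree on the line of 2i/LIF replicates 1 to 4. Nothing says whether arrays of the same line within 2i/LIF came from separate cultures, so part of the spread there may be technical. In serum/LIF and KOSR/LIF each array is of another line, so the spread there includes differences between lines. A p-value here covers only the spread of these samples.

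FGFs are secreted proteins that bind receptor tyrosine kinases together with heparan sulfate, a sugar chain of the cell surface and matrix. The activated receptor signals through adaptor proteins, RAS, RAF and MEK to the kinase ERK, and ERK switches on genes that include its own inhibitors, such as Sprouty proteins and dual-specificity phosphatases. In ES cells Fgf4 is the best known ligand made by the cells themselves and Fgfr1 the best known receptor. In the inner cell mass of the mouse embryo Fgf4 is made by epiblast cells, and Fgfr2 is known for its expression in primitive endoderm. MEK, which 2i blocks, lies downstream of all 4 receptors.

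A level is given here as the log2 intensity of the probe relative to the 75th percentile of its array, so 0 is the brightness of a probe at that percentile. Probes differ in how they bind, and levels are compared between media and never between genes. The 75th percentile lay between 176 and 538 intensity units on 10 arrays and at 65.3 on replicate 3 of KOSR/LIF. That array also had the lowest share of probes well above background, 43.7% against 53.7% to 72.6%. The column of the authors' deposited value table for this sample resembled none of the scanner files closely. Its rank correlation across probes was 0.842 with its own scanner file and at most 0.962 with any other, while the other 10 columns each had a scanner file at 0.988 to 0.999. For 6 of these it was their own file, and the columns of 2i/LIF replicates 1 and 4, and of KOSR/LIF replicates 1 and 2, were nearest to each other's files. Such exchanges leave comparisons between media unaltered. Values for KOSR/LIF are given without replicate 3 too for most of the genes described.

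The ES cell identity of the samples was checked on 8 pluripotency genes (Pou5f1, Nanog, Sox2, Esrrb, Zfp42, Klf4, Dppa5a and Tdgf1), all of which were measured above background. Their summed level (log2 of the summed scaled intensities) lay between 9.36 and 9.76 for serum/LIF, between 9.33 and 9.81 for 2i/LIF and between 8.79 and 9.18 for KOSR/LIF. Dppa5a, at 8.22 to 9.08, was the largest part of that sum. On KOSR/LIF replicate 3 Pou5f1 was at 3.69 (5.65 to 6.27 on the other arrays) and Nanog at 1.21 (2.93 to 4.63). At a limma adjusted p under 0.05, 3 of the 8 were higher in 2i/LIF than in KOSR/LIF. Relative to serum/LIF 1 of 8 was lower in 2i/LIF and 1 of 8 in KOSR/LIF. Markers of other cell types were also present, and no marker of the 5 lists was below background on all arrays. At the same threshold 9.98% of all genes were lower and 6.74% higher in 2i/LIF than in serum/LIF. Relative to KOSR/LIF 8.72% were lower and 5.95% higher in 2i/LIF. Primitive endoderm markers summed to 3.66 to 4.31 on the arrays of serum/LIF, 3.37 to 4.34 on those of 2i/LIF and 2.61 to 5.49 on those of KOSR/LIF, and 7 of 8 were lower in 2i/LIF than in KOSR/LIF. Fibroblast markers summed to 2.44 to 3.92, 2.25 to 2.62 and 3.03 to 3.79 in the same order of media, and relative to serum/LIF 4 of 9 were lower and 1 higher in 2i/LIF. Trophoblast markers summed to 6.46 to 7.49, 3.65 to 4.40 and 3.92 to 5.07, and 2i/LIF had lower levels of 3 of 8 than serum/LIF. Neural progenitor markers summed to 3.22 to 3.52, 2.39 to 3.03 and 2.66 to 3.75, where 2i/LIF had less of 2 of 7 than serum/LIF (Pax6 and Sox3) and less of 3 of 7 than KOSR/LIF. Mesoderm markers summed to 2.87 to 3.60, 3.13 to 3.79 and 2.96 to 4.79, and 2i/LIF had less of 1 of 6 than serum/LIF. Between 2i/LIF and serum/LIF the sums of trophoblast and of neural progenitor markers did not overlap and were lower in 2i/LIF, as Fgf15, Fgfr2 and Fgfr3 were. Those of primitive endoderm, fibroblast and mesoderm markers overlapped. Krt18, the largest part of the trophoblast sum in serum/LIF, had a mean of 6.50 there and 1.36 in 2i/LIF, while Cdx2, Eomes and Elf5 overlapped. Fgf15, Fgfr2 and Fgfr3 were lower in 2i/LIF than in KOSR/LIF too. Between those media the fibroblast sums did not overlap and were lower in 2i/LIF, and the sums of the other lists overlapped. Between KOSR/LIF and serum/LIF the trophoblast sums did not overlap and were lower in KOSR/LIF, with 2 of 8 markers lower. The sums of the other lists overlapped there. Fgf15, Fgfr2 and Fgfr3 gave no call between KOSR/LIF and serum/LIF (-0.34, 0.048 and 0.53). The part of such cells in the results was not tested. In bulk RNA such as this, fewer cells of a type and less RNA per cell cannot be told apart.

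RefSeq promoter sequence (build GRCm38.p6) was at hand for 4 of the 8 genes. The 250 bases before the start are shown for Fgfr2 and Fgfr3, the receptor genes called lower in 2i/LIF on their brighter probes, and for Fgf4, whose level was highest there. Capitals mark the GC box GGGCGG, the motif of Sp-family factors, on either strand. Fgf4 lies at chr7:144861136-144861385 (plus strand), Fgfr2 at chr7:130266809-130267058 (minus strand) and the first of 2 Fgfr3 starts at chr5:33721474-33721723 (plus strand).
Fgf4: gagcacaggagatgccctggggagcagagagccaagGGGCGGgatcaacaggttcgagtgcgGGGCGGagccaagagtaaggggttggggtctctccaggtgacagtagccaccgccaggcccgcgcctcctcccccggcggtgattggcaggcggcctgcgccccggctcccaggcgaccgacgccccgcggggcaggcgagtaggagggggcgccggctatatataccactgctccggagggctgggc
Fgfr2: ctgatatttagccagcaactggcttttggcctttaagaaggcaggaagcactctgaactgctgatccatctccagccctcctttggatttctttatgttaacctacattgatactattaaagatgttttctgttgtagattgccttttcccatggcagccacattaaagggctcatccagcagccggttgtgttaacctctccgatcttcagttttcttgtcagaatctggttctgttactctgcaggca
Fgfr3: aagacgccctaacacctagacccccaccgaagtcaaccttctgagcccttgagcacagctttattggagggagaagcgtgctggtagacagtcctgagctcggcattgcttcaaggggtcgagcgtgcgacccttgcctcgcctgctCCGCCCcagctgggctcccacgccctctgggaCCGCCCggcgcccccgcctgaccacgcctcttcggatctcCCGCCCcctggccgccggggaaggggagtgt
The windows differed in base composition. G and C made up 44.0% of the Fgfr2 window, 66.8% of the Fgfr3 window and 71.2% of the Fgf4 window, against a median of 52.4% over 32851 RefSeq promoters cut to the same length. CpG dinucleotides numbered 2 in Fgfr2, 19 in Fgfr3 and 21 in Fgf4, and the median promoter held 6. The Fgfr2 window had no GC box, the Fgfr3 window had 3 and the Fgf4 window had 2, and 32.7% of all promoters hold at least 1. None of the 3 windows held the AP-1 motif TGANTCA (6.75% of all promoters), the ETS motif CCGGAAGT (2.88%) or the E-box CACGTG (6.02%), searched on both strands, and none of the GC boxes overlapped another of these motifs. AP-1 and ETS factors are known effectors of ERK. The Fgfr4 window, chr13:55152568-55152817 on the plus strand, was 64.0% G and C with 2 GC boxes.

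Calls among the members came only from the comparisons of 2i/LIF, in which more of all genes passed too. KOSR/LIF against serum/LIF sets 3 arrays against 3. In 2i/LIF against serum/LIF 3 of the 8 genes fell, Fgf15, Fgfr2 and Fgfr3, and none rose at an adjusted p of 0.05 (limma, Benjamini-Hochberg over 16279 genes). Each gene is read here on its brightest probe, and the second Fgfr3 probe gave no call (-0.032, limma adjusted p = 0.976 over probes). Of all genes tested 9.98% fell and 6.74% rose in that comparison, 16.7% in all. The same 3 genes were lower in 2i/LIF against KOSR/LIF and Fgf4 was higher. There, 8.72% of all genes were lower and 5.95% higher, 14.7% in all. No member passed in KOSR/LIF against serum/LIF, in which 4.58% of all genes did. That share fell to 1.36% without serum/LIF replicate 1, 1.96% without serum/LIF replicate 2, 2.5% without serum/LIF replicate 3, and 2.25% and 2.27% without KOSR/LIF replicates 1 and 2. At an unadjusted p under 0.05 limma gave 1 member higher and 2 lower in KOSR/LIF against serum/LIF. The counts were 0 higher and 4 lower in 2i/LIF against serum/LIF, and 1 higher and 4 lower in 2i/LIF against KOSR/LIF. The share of all genes at that level is not given, so these counts are not read as a result about the members. The comparisons share arrays and are not independent of each other. Arrays of the 2 media did not overlap for 3 members in 2i/LIF against serum/LIF (25.7% of all genes), for 3 in KOSR/LIF against serum/LIF (28.4%) and for 5 in 2i/LIF against KOSR/LIF (19.6%).

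**Figure D1:**
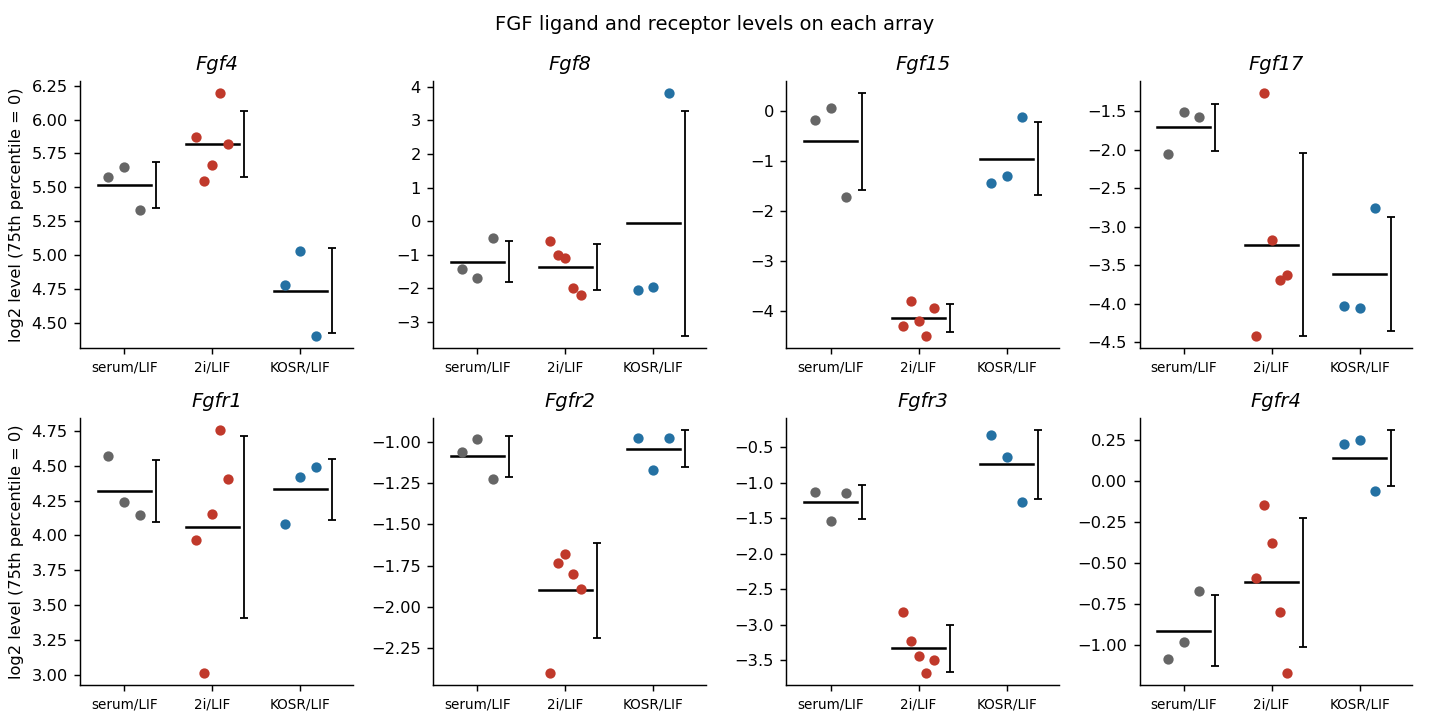
Level of each gene on each array (vertical axes: log2 intensity with the array's 75th percentile at 0; each panel has its own range), by medium. Points are arrays, horizontal lines means and bars the SD (n = 3, 5 and 3); Fgf15, Fgfr2 and Fgfr3 lie lower on all 5 arrays of 2i/LIF than on any array of the other media, and 1 array of KOSR/LIF stands apart for Fgf8.

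**Figure D2:**
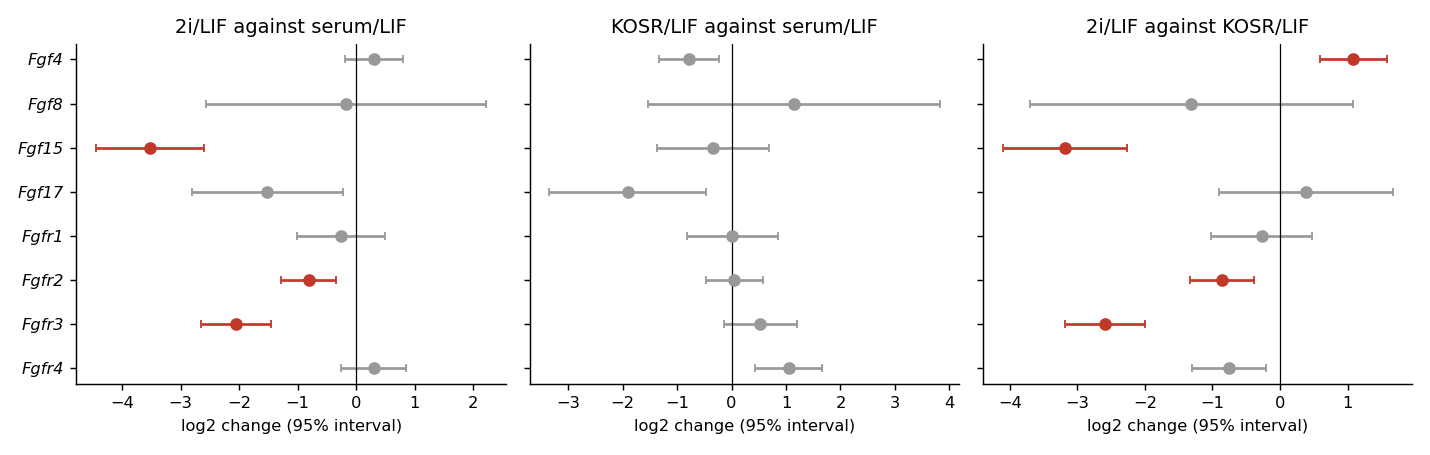
Log2 change of each gene in the 3 comparisons with its 95% confidence interval from limma; red marks an adjusted p under 0.05 and the horizontal axes differ in range. Fgf15 and Fgfr3 have the lowest values in both comparisons of 2i/LIF, and every interval for KOSR/LIF against serum/LIF is drawn in grey.

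Among the ligands, Fgf4, the FGF that ES cells secrete in culture, was bright on all 11 arrays. Its level was 5.57, 5.65 and 5.33 on the serum/LIF arrays, 5.87, 5.55, 5.66, 6.20 and 5.82 on the 2i/LIF arrays, and 4.78, 5.03 and 4.40 on the KOSR/LIF arrays, each in the order of the replicate numbers. All 3 arrays of KOSR/LIF were below every array of the other media, while serum/LIF and 2i/LIF overlapped. The mean was 1.08 ± 0.23 (log2, standard error) higher in 2i/LIF (5.82 ± 0.25, SD, n = 5) than in KOSR/LIF (4.74 ± 0.31, SD, n = 3), which is 2.12-fold (limma adjusted p = 0.00714). The change was 0.92 (adjusted p = 0.0236) without KOSR/LIF replicate 3, 1.09 with scan day as a block and 1.03 within the first scan day, which held 2 arrays of each medium. The order of the means was 2i/LIF, serum/LIF (5.52 ± 0.17, SD, n = 3) and KOSR/LIF, and neither pair of neighbours in it passed the test. The difference of 2i/LIF from serum/LIF was 0.30 (adjusted p = 0.472; 95% interval -0.19 to 0.79), and that of KOSR/LIF from serum/LIF was -0.78 (adjusted p = 0.111), or -0.62 without KOSR/LIF replicate 3.

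Fgf15, the mouse counterpart of human FGF19 and best known as a gut hormone that restrains bile acid synthesis, had the largest change among the 8 genes. Its level was -0.18, 0.062 and -1.71 in serum/LIF, -4.29, -3.80, -4.20, -4.49 and -3.93 in 2i/LIF, and -1.44, -1.30 and -0.12 in KOSR/LIF. The 5 arrays of 2i/LIF lay close together and far below the rest, and serum/LIF and KOSR/LIF overlapped. In 2i/LIF the level fell by 3.53 ± 0.42 (log2, standard error) relative to serum/LIF, 11.6-fold (limma adjusted p = 0.000165). It was 9.11-fold lower than in KOSR/LIF (-3.19 ± 0.42, adjusted p = 0.00048), and -2.77 without KOSR/LIF replicate 3. The probe was well above background on 3 of the 5 arrays of 2i/LIF. Raising the dim signals to the lowest signal well above background gave -3.48 against serum/LIF and -3.14 against KOSR/LIF. Against serum/LIF the change was -3.64 with scan day as a block, -4.28 within the first scan day and -2.39 within the third, which held 1 array of serum/LIF and 2 of 2i/LIF. With normexp background correction on the median signals it was smaller, -1.63 (adjusted p = 0.00431) against serum/LIF and -1.37 (adjusted p = 0.0184) against KOSR/LIF. Serum/LIF and KOSR/LIF did not differ beyond their spread (-0.34, adjusted p = 0.729; 95% interval -1.37 to 0.69; -0.76 without KOSR/LIF replicate 3), although within the first scan day alone KOSR/LIF was lower by -1.31 (adjusted p = 0.0287).

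Fgf17, a ligand of the Fgf8 subfamily known from the developing midbrain and cerebellum, was lower outside serum/LIF on most arrays without passing the test. Its level was -2.05, -1.50 and -1.57 in serum/LIF, -4.41, -1.26, -3.17, -3.68 and -3.63 in 2i/LIF, and -4.03, -4.05 and -2.75 in KOSR/LIF. Replicate 2 of 2i/LIF was above every other array, and the other 4 arrays of 2i/LIF and all 3 of KOSR/LIF were below all of serum/LIF. The difference from serum/LIF was -1.52 ± 0.59 for 2i/LIF (limma adjusted p = 0.111) and -1.90 ± 0.66 for KOSR/LIF (adjusted p = 0.139). Both passed without 2i/LIF replicate 2, at -2.01 (adjusted p = 0.00447) and -1.90 (adjusted p = 0.0265), and both passed with scan day as a block, at -1.86 (adjusted p = 0.00317) and -2.64 (adjusted p = 0.00706). Within the first scan day they were -1.65 (adjusted p = 0.014) and -2.26 (adjusted p = 0.0213), and within the third the value for 2i/LIF was -2.45 (adjusted p = 0.0272). Without KOSR/LIF replicate 3, on which the probe was not well above background, the difference of KOSR/LIF was -2.33 (adjusted p = 0.115). The means ran from serum/LIF through 2i/LIF to KOSR/LIF, and the last pair differed by 0.38 (adjusted p = 0.734; 0.81 without KOSR/LIF replicate 3).

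Fgf8, the founding member of that subfamily and a signal of gastrulation, gave no call on its brighter probe, and 1 array set its mean in KOSR/LIF. The level was -1.42, -1.69 and -0.51 in serum/LIF, -0.60, -1, -1.10, -2.01 and -2.20 in 2i/LIF, and -2.05, -1.96 and 3.81 in KOSR/LIF. Replicate 3 of KOSR/LIF was thus far above the other 10 arrays, and those overlapped between the media. On the second Fgf8 probe the same array was at -2.89, within the range of serum/LIF (-3.50 to -2.72), and in the authors' deposited table the sample's value for the brighter probe was 186, inside the 88.9 to 237 of the other columns. KOSR/LIF differed from serum/LIF by 1.14 ± 1.22 (limma adjusted p = 0.649) on the brighter probe, by -0.80 (adjusted p = 0.492) without that array and by -0.38 in the deposited table. The difference of 2i/LIF from serum/LIF was -0.17 (adjusted p = 0.958; 95% interval -2.57 to 2.22).

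Fgf3, Fgf4 and Fgf15 are consecutive protein-coding genes on the chromosome in the RefSeq gene table of GRCm38.p6. The 3 neighbours took different courses. Fgf3, another secreted ligand, was at -5.22, -3.86 and -4.14 in serum/LIF, -1.75, -1.57, -1.79, -1.64 and -1.71 in 2i/LIF, and -3.28, -3.95 and -4.27 in KOSR/LIF. It was the opposite of Fgf15 in order, with all 5 arrays of 2i/LIF above all others. Fgf3 was higher in 2i/LIF by 2.72 ± 0.32 than in serum/LIF (limma adjusted p = 0.000146; 2.37 with dim signals raised, since 2 of 3 arrays of serum/LIF were well above background) and by 2.15 than in KOSR/LIF (adjusted p = 0.000902; 1.51 with dim signals raised, as 2 of 3 arrays of KOSR/LIF were well above background, and 1.93 without KOSR/LIF replicate 3). The call against KOSR/LIF ended with normexp correction and within the first scan day (highest adjusted p = 0.311 over the alternatives). Against serum/LIF the 3 neighbours therefore changed by 2.72, 0.30 and -3.53, of which the first and the last passed.

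**Figure D3:**
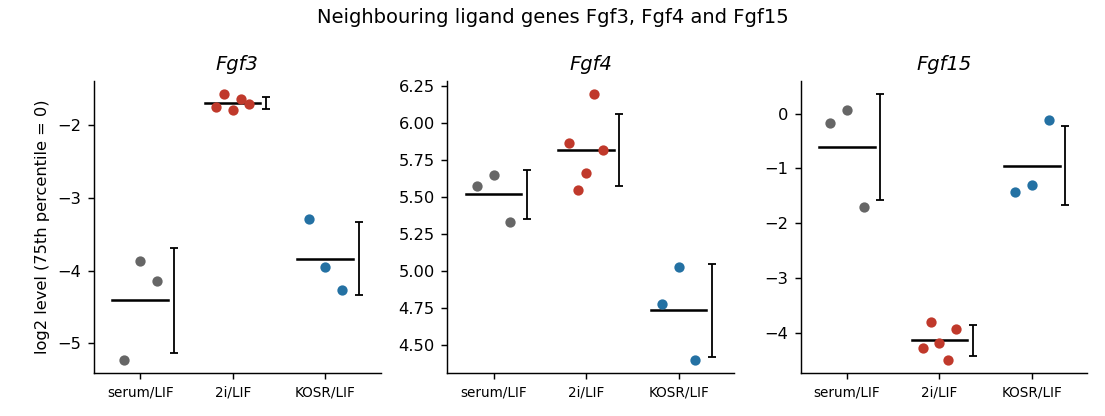
Levels of the neighbouring genes Fgf3, Fgf4 and Fgf15 on each array (vertical axes: log2 intensity with the array's 75th percentile at 0, own range per panel), by medium, with means as lines and SD as bars (n = 3, 5 and 3). In 2i/LIF Fgf3 is at -1.79 to -1.57, above all other arrays, and Fgf15 at -4.49 to -3.80, below them.

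Among the receptors, Fgfr1, known as the main FGF receptor of ES cells, showed no called change on any of its 3 probes. The brightest probe read 4.57, 4.24 and 4.15 in serum/LIF, 3.97, 3.02, 4.15, 4.76 and 4.41 in 2i/LIF, and 4.08, 4.42 and 4.49 in KOSR/LIF. The media overlapped throughout, and replicate 2 of 2i/LIF was the lowest array. The differences were -0.26 for 2i/LIF against serum/LIF (limma adjusted p = 0.732; 95% interval -1.0 to 0.49), 0.013 for KOSR/LIF against serum/LIF (adjusted p = 0.989; -0.82 to 0.86) and -0.27 for 2i/LIF against KOSR/LIF (adjusted p = 0.663; -1.02 to 0.47). The other two probes ranged from -0.25 to 1.84 and from 0.19 to 1.60 over the 11 arrays. Without KOSR/LIF replicate 3 the differences of KOSR/LIF from serum/LIF and of 2i/LIF from KOSR/LIF were -0.067 and -0.19.

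Fgfr2, whose protein is a receptor for several epithelial and mesenchymal FGFs, was lower in 2i/LIF. The brighter probe read -1.06, -0.98 and -1.22 in serum/LIF, -2.40, -1.73, -1.68, -1.80 and -1.89 in 2i/LIF, and -0.98, -1.17 and -0.98 in KOSR/LIF. Every array of 2i/LIF was below every other array, and replicate 1 was the lowest. The level fell by 0.81 ± 0.21 relative to serum/LIF, 1.75-fold (limma adjusted p = 0.0215), and was 1.81-fold lower than in KOSR/LIF (-0.86 ± 0.21, adjusted p = 0.019; -0.83, adjusted p = 0.0434, without KOSR/LIF replicate 3). The call against serum/LIF ended when either of 2 arrays of serum/LIF was left out (adjusted p = 0.0882 without replicate 1, 0.0943 without replicate 2), and when 2i/LIF replicates 1 and 5 were left out together (adjusted p = 0.069). The call against KOSR/LIF ended without KOSR/LIF replicate 1 (adjusted p = 0.0718) and without the same 2 arrays of 2i/LIF (adjusted p = 0.0578). With scan day as a block the changes were -0.80 (adjusted p = 0.0106) and -0.72 (adjusted p = 0.0257). Within the first scan day they were -0.72 (adjusted p = 0.0445) and -0.67 (adjusted p = 0.0606), and within the third the value against serum/LIF was -0.92 (adjusted p = 0.279). Normexp correction gave -0.55 (adjusted p = 0.218) and -0.70 (adjusted p = 0.0939). Serum/LIF and KOSR/LIF differed by 0.048 (adjusted p = 0.932; 95% interval -0.48 to 0.57).

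The second Fgfr2 probe, which is spotted 10 times on the array, showed a wider gap. It read -3.04, -3.04 and -3.05 in serum/LIF and -3.33, -3.55 and -3.40 in KOSR/LIF, and on no array of 2i/LIF was it well above background. The probe thus passed the filter only through the media where it was high, and its fall is no independent support. Its level in 2i/LIF was at least 3.35-fold lower than in serum/LIF (limma adjusted p = 8.18e-05 over 21274 probes, of which 15.9% passed) and at least 2.57-fold lower than in KOSR/LIF (adjusted p = 0.000333; 13.6% of probes passed), or at least 2.55-fold without KOSR/LIF replicate 3. Such a bound takes, on each dim array, the lowest signal that counts as well above background (or the probe's own, if higher) in place of the dim value. Normexp correction gave -0.54 (adjusted p = 0.493) and -0.83 (adjusted p = 0.168). Within the arrays, the second probe minus the brighter one was -4.64 to -3.51 in 2i/LIF and -2.06 to -1.83 in serum/LIF. The exact two-sided permutation test of that difference gave p = 0.0179, the smallest that 5 arrays against 3 allow, and an adjusted p of 0.0938 over the 21 probe pairs and comparisons run, a test chosen after the values had been seen.

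Fgfr3, best known as a brake on bone growth, had the largest change among the receptors on the probe that stood for each gene. With the mean of a gene's probes instead, Fgfr3 changed by -1.05 and Fgfr2 by -1.80 in 2i/LIF against serum/LIF, and by -1.71 and -1.64 against KOSR/LIF. The brighter probe read -1.12, -1.54 and -1.14 in serum/LIF, -2.82, -3.23, -3.45, -3.67 and -3.49 in 2i/LIF, and -0.32, -0.63 and -1.27 in KOSR/LIF. All arrays of 2i/LIF were below all others, and serum/LIF and KOSR/LIF overlapped on 1 array of the latter. In 2i/LIF the level fell by 2.06 ± 0.27 relative to serum/LIF, 4.17-fold (limma adjusted p = 0.000335), and it was 6.02-fold lower than in KOSR/LIF (-2.59 ± 0.27, adjusted p = 0.00012; -2.86 without KOSR/LIF replicate 3). Against serum/LIF the change was -2.03 with scan day as a block, -2.22 within the first scan day and -2.01 within the third. Normexp correction gave -0.94 (adjusted p = 0.0159) against serum/LIF and -1.44 (adjusted p = 0.000872) against KOSR/LIF. The order was KOSR/LIF, serum/LIF, 2i/LIF, and the first 2 differed by 0.53 (adjusted p = 0.389; 95% interval -0.14 to 1.20), or by 0.79 (adjusted p = 0.176) without KOSR/LIF replicate 3.

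The second Fgfr3 probe, annotated to the same RefSeq transcript, did not follow. It read -3.15, -3.14 and -3.54 in serum/LIF, -3.38, -3.45, -2.71, -3.84 and -3.15 in 2i/LIF, and -2.93, -3.02 and -1.49 in KOSR/LIF, and it was well above background on all 11 arrays. Serum/LIF and 2i/LIF overlapped fully, and the change between them was -0.032 (limma adjusted p = 0.976; 95% interval -0.83 to 0.77). The brighter probe minus the second was 1.60 to 2.39 in serum/LIF and -0.73 to 0.56 in 2i/LIF, without overlap (exact two-sided permutation p = 0.0179, adjusted 0.0938 over the same 21 tests).

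Fgfr4, the usual receptor of Fgf15 together with beta-Klotho, was highest in KOSR/LIF. The brighter probe read -1.09, -0.98 and -0.67 in serum/LIF, -0.59, -0.14, -0.38, -0.80 and -1.17 in 2i/LIF, and 0.23, 0.25 and -0.059 in KOSR/LIF. All 3 arrays of KOSR/LIF were above all others, and the other two media overlapped. The difference from serum/LIF was 1.05 ± 0.28, 2.07-fold, and did not pass (limma adjusted p = 0.0585), and neither did that of 2i/LIF from KOSR/LIF (-0.76, adjusted p = 0.0688). Without KOSR/LIF replicate 3 they were 1.15 (adjusted p = 0.068) and -0.86 (adjusted p = 0.0754). The first passed without 2i/LIF replicate 2 (adjusted p = 0.0369), without 2i/LIF replicate 5 (adjusted p = 0.0413) and within the first scan day (1.27, adjusted p = 0.0328), and was 0.96 (adjusted p = 0.0997) with scan day as a block. The second passed without 2i/LIF replicate 2 (-0.87, adjusted p = 0.0287). The dimmer Fgfr4 probe did not show the KOSR/LIF level, with a difference from serum/LIF of -0.052 (adjusted p = 0.923; 95% interval -0.56 to 0.46).

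**Figure D4:**
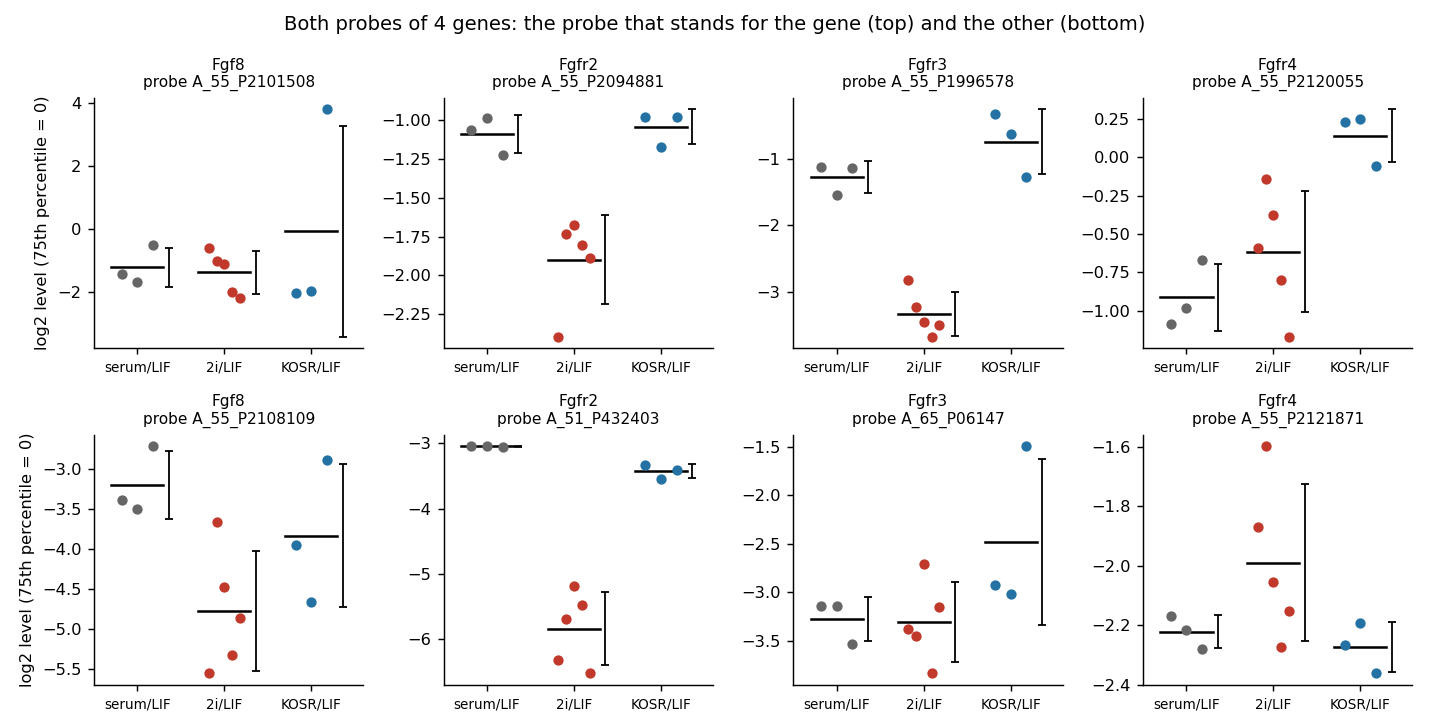
Both probes of Fgf8, Fgfr2, Fgfr3 and Fgfr4 on each array (vertical axes: log2 intensity with the array's 75th percentile at 0, own range per panel), the brighter probe above and the other below, with means as lines and SD as bars (n = 3, 5 and 3). The probes of Fgfr2 both drop in 2i/LIF, the dimmer one to values not well above background. Those of Fgfr3 differ, with changes against serum/LIF of -2.06 and -0.03.

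Probe by probe, the second Fgf8 probe fell in 2i/LIF relative to serum/LIF (-1.57 ± 0.47, limma adjusted p = 0.0415), with 2 of 5 arrays of 2i/LIF well above background. Leaving out single arrays ended this call in 8 of 11 cases, with adjusted p up to 0.169, and the arrays were serum/LIF replicates 1, 2 and 3, 2i/LIF replicates 1, 3, 4 and 5 and KOSR/LIF replicate 1. In all, 5 of the 14 probes passed in 2i/LIF against serum/LIF, where 15.9% of all probes did. In 2i/LIF against KOSR/LIF 5 passed (13.6% of all probes), and in KOSR/LIF against serum/LIF none did (4.13%). Both counts of 5 include the second Fgfr2 probe, which was well above background on no array of 2i/LIF.

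The genes around these receptors and ligands were described by lists. Their counts stand beside those of all genes tested. In 2i/LIF against serum/LIF 9.98% fell and 6.74% rose, and in 2i/LIF against KOSR/LIF 8.72% were lower and 5.95% higher. In KOSR/LIF against serum/LIF 4.58% passed. Whether a list as a whole differed from these shares was not tested. Counts at an unadjusted p are given below without such a share, and none is read as a result about a list. Of the other 18 FGF ligands 11 passed the filter. In 2i/LIF against serum/LIF 1 was higher (Fgf3) and 4 were lower, with a median change of -0.36 against 0.026 over all genes. Fgf5, the ligand that marks the post-implantation epiblast, was above background on no array of 2i/LIF and was at least 36.2-fold lower than in serum/LIF and at least 5.99-fold lower than in KOSR/LIF (limma adjusted p = 0.000108 and 0.00318). Without KOSR/LIF replicate 3 the latter bound was 3.16-fold (adjusted p = 0.0124), and with normexp correction the latter call ended (adjusted p = 0.0527). Fgf5 passed the filter only through the media where it was high, and its fall is no independent support. Fgf1, a ligand of all 4 receptors, was at -0.55, -0.26 and -0.57 in serum/LIF and between -3.80 and -3.13 in 2i/LIF. The change was -3.12 ± 0.50 (limma adjusted p = 0.00116), and its call ended with the mean of the gene's probes (adjusted p = 0.0594). Fgf13 (-1.67) and Fgf18 (-1.61) were the other two that fell, named after their values had been seen. The call of Fgf13 ended without serum/LIF replicate 1, with normexp correction and with quantile normalization, each of which left 3 lower. In KOSR/LIF against serum/LIF none of the 11 passed (3 lower at an unadjusted p under 0.05 in limma), and without KOSR/LIF replicate 3 Fgf5 did (-3.52, adjusted p = 0.0315). Relative to KOSR/LIF, Fgf3 was higher in 2i/LIF and Fgf1 (-3.43; -2.60 without KOSR/LIF replicate 3) and Fgf5 were lower.

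Of 10 measured co-receptors, decoy receptors and binding proteins 1 rose and 3 fell in 2i/LIF against serum/LIF (median -0.49). Of all genes 6.74% rose and 9.98% fell there. Klb, beta-Klotho, the co-receptor that Fgf15 needs, was at -2.84, -2.88 and -3.21 in serum/LIF, between -0.76 and 0.68 in 2i/LIF, and at -0.29, -0.94 and -1.59 in KOSR/LIF. All arrays of serum/LIF were below all others. Klb was higher than in serum/LIF by 2.70 ± 0.36 in 2i/LIF (limma adjusted p = 0.00035) and by 2.04 ± 0.40 in KOSR/LIF (adjusted p = 0.017; 2.36 without KOSR/LIF replicate 3). The latter call was the single one of this list in that comparison, and it ended without any 1 of the 3 serum/LIF arrays or of KOSR/LIF replicates 1 and 2, with quantile normalization, with the replicate block and within the first scan day (adjusted p up to 0.0667). Against serum/LIF, 2i/LIF thus had more Klb and less Fgf15. Cdh2, the N-cadherin that can bind FGF receptors, fell by 2.47 ± 0.48 (adjusted p = 0.00358) and Fgfbp1, a carrier that releases FGFs from the matrix, fell by 1.95 ± 0.39 (adjusted p = 0.00468). Il17rd, an inhibitor of FGF signalling at the membrane that is named after its value had been seen, was the other (-1.01, adjusted p = 0.0422), and 7 of the 11 single arrays ended its call when left out. The count of this list that fell was 2 without serum/LIF replicate 1 or 2, 2i/LIF replicate 2, 3 or 5 or KOSR/LIF replicate 1 or 2, and it was 5 when 2i/LIF replicate 1 was left out. Of those that rose there were 2 without KOSR/LIF replicate 3 and 3 with the mean of a gene's probes. Cdh2 alone passed in 2i/LIF against KOSR/LIF (-1.74, adjusted p = 0.0296), and without 2i/LIF replicate 3 or 4 or KOSR/LIF replicate 2 or 3 no member of this list did, while 3 did without 2i/LIF replicate 1.

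All 23 genes of heparan sulfate proteoglycans and their enzymes were measured. In 2i/LIF against serum/LIF 5 fell and none rose, where 9.98% of all genes fell and 6.74% rose. The median was -0.40, and 1 was higher at an unadjusted p under 0.05 in limma. Leaving out 1 array brought the 5 down to 2 (serum/LIF replicate 1 or 2) or 3 (serum/LIF replicate 3, 2i/LIF replicate 1 or 4), and 2 fell without 2i/LIF replicates 1 and 5 together. Hs6st2, a sulfotransferase that modifies heparan sulfate, was at -0.28, -0.86 and -0.50 in serum/LIF, between -4.83 and -4.25 in 2i/LIF, and at -2.01, -1.44 and -2.05 in KOSR/LIF. The 3 media did not overlap. It fell by 3.92 ± 0.24 in 2i/LIF (limma adjusted p = 2.81e-06; -3.70 with dim signals raised, 2 of 5 arrays being well above background) and by 1.28 ± 0.26 in KOSR/LIF (adjusted p = 0.0202; -1.17 without KOSR/LIF replicate 3). Hspg2 (perlecan, -1.47) and Gpc1 (glypican, -1.43) also fell in 2i/LIF. The Hspg2 call ended without serum/LIF replicate 1 or 2, without 2i/LIF replicates 1 and 5 together and with the mean of a gene's probes. Gpc4, another glypican, fell in KOSR/LIF (-0.91, limma adjusted p = 0.0478, and -1.05 without KOSR/LIF replicate 3). It was also among the 5 that fell in 2i/LIF (-0.68, adjusted p = 0.0425), a call that ended without 10 of the 11 single arrays. Both calls of KOSR/LIF against serum/LIF, Hs6st2 and Gpc4, ended without serum/LIF replicate 1 or 3 or KOSR/LIF replicate 1, with normexp correction, with the replicate block and within the first scan day; that of Gpc4 ended without 9 of the 11 single arrays. Hs6st2 (-2.64; -2.75 without KOSR/LIF replicate 3) and Gpc1 (-0.89; -1.0) were lower in 2i/LIF than in KOSR/LIF, and the Gpc1 call ended without 8 of the 11 single arrays.

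Of the 23 measured genes that relay the signal from receptor to ERK, none passed in 2i/LIF against serum/LIF or in KOSR/LIF against serum/LIF (median -0.13 and -0.24). At an unadjusted p under 0.05 limma gave 2 lower in the first, and 1 higher and 3 lower in the second. Braf, a RAF kinase, was lower in 2i/LIF than in KOSR/LIF (-1.19 ± 0.30, limma adjusted p = 0.0199; -1.50 without KOSR/LIF replicate 3). Its call ended without KOSR/LIF replicate 1 or 2, without 2i/LIF replicates 1 and 5 together, with normexp correction and with the replicate block (adjusted p up to 0.091).

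The response genes and feedback inhibitors of FGF and ERK signalling had the most calls of the 5 lists. Of 19 measured, 13 fell and none rose in 2i/LIF against serum/LIF (median -2.19, none higher at an unadjusted p under 0.05 in limma). In 2i/LIF against KOSR/LIF 10 were lower and 1 higher (median -1.14, with 9 lower and 1 higher without KOSR/LIF replicate 3). The 10 and the 9 include Egr2, which was well above background on no array of either medium. Its difference there is thus between levels that were not measured. Without KOSR/LIF replicate 3 it was -1.23, and 0.42 with the dim signals of 2i/LIF raised. Egr1, an immediate-early transcription factor, was at 2.02, 2.00 and 2.39 in serum/LIF, between -6.38 and -4.89 in 2i/LIF, where 1 of 5 arrays was well above background, and at 1.24, -0.0054 and -0.78 in KOSR/LIF. Its change was -7.76 against serum/LIF (limma adjusted p = 2.81e-06; -6.67 with dim signals raised) and -5.78 against KOSR/LIF (-4.69 raised; -6.25 without KOSR/LIF replicate 3). Spry4, a feedback inhibitor of receptor signalling, was at least 13.0-fold lower than in serum/LIF and at least 4.27-fold lower than in KOSR/LIF, and Dusp4, a nuclear phosphatase of ERK, changed by -5.51 and -3.84. Without KOSR/LIF replicate 3 the values against KOSR/LIF were at least 3.8-fold for Spry4 and -4.19 for Dusp4. Spry4, on no array of 2i/LIF well above background, passed the filter only through the other media. Its place among the 13 and the 10 is no independent support. Etv5, an ETS transcription factor induced by FGF, was the gene that was higher in 2i/LIF than in KOSR/LIF (0.79 ± 0.23, adjusted p = 0.0384), and it is named after its value had been seen. This call ended without serum/LIF replicate 1, 2i/LIF replicate 1, 3, 4 or 5 or KOSR/LIF replicate 1 or 2, and with 7 other alternatives, among them quantile normalization and scan day as a block (adjusted p up to 0.204). Its difference of 2i/LIF from serum/LIF was 0.11 (adjusted p = 0.851; 95% interval -0.39 to 0.61). In KOSR/LIF against serum/LIF 2 of the 19 fell. They were Spry1, a feedback inhibitor (-1.76 ± 0.38, limma adjusted p = 0.0252), and Egr2, at least 1.32-fold (adjusted p = 0.039). Without KOSR/LIF replicate 3 Egr2 alone fell (at least 2.16-fold), and Spry1 gave -1.62 (adjusted p = 0.0683). Egr2 was well above background on the 3 arrays of serum/LIF and on no other array. It thus passed the filter only through the medium where it was high, also for its place among the 13. Its fall is no independent support. In that comparison none of the 19 fell without serum/LIF replicate 1, 2 or 3, where Egr2 no longer entered, or without KOSR/LIF replicate 2. With 2i/LIF replicate 3 or 4 or KOSR/LIF replicate 1 left out 1 fell, and 5 fell with the stricter filter on dim probes.

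**Figure D5:**
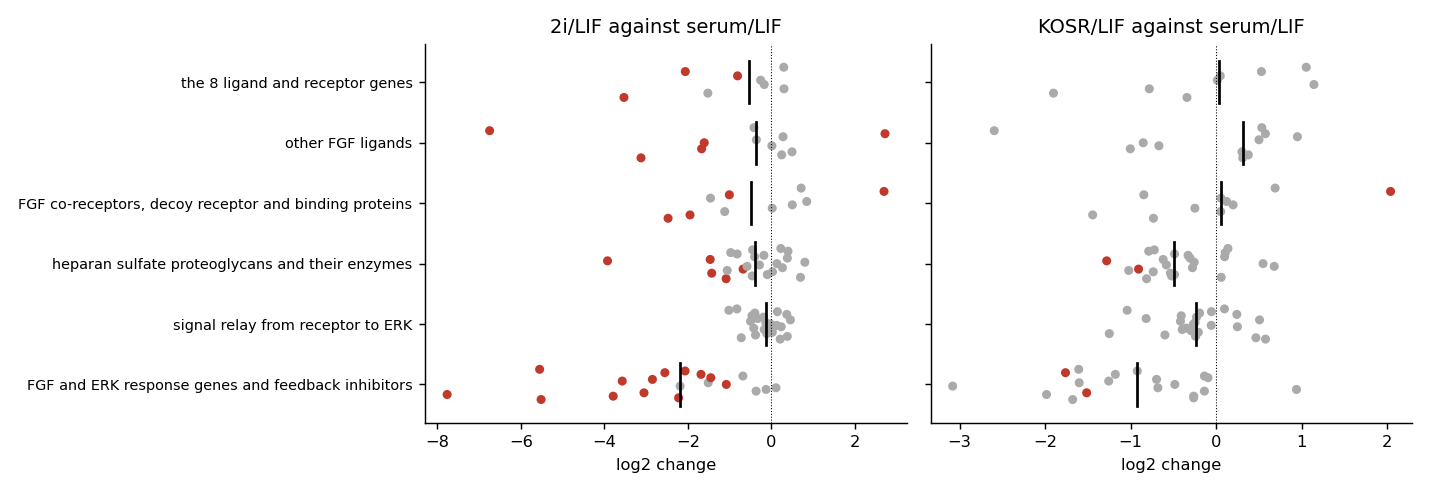
Log2 change of every measured gene of the 8 ligands and receptors and of the 5 lists, in 2i/LIF (left) and KOSR/LIF (right) against serum/LIF. Red points have an adjusted p under 0.05, black bars are medians, the 2 horizontal axes differ in range, and genes below background in 2i/LIF are drawn at their fitted value; in the left panel 13 of 19 response genes are red and lower, and no relay gene is red.

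The genes most like each called member were found by the root mean square difference of levels over all 11 arrays, after centring each gene on its mean (15357 tested genes, clone and locus names left out). For Fgf4 they were Gcnt2 (0.13), Vps26a (0.16) and Tanc1 (0.16), where Fgf4 itself varied by 0.50 about its mean. For Fgf15 (1.76) they were Pax6 (0.32), Mmp25 (0.47) and Bcl11a (0.47). Of the 5 arrays of 2i/LIF, Pax6 was well above background on 1, Mmp25 on 0, Bcl11a on 4 and Fgf15 on 3. The likeness in 2i/LIF thus rests in part on levels that were not measured. Pax6 was at -1.94, -1.34 and -2.84 in serum/LIF, between -6.15 and -5.20 in 2i/LIF, and at -2.63, -2.65 and -1.07 in KOSR/LIF, so replicate 3 of serum/LIF was its lowest array in that medium and replicate 3 of KOSR/LIF its highest, as for Fgf15. For Fgfr2 (0.46) they included Senp8 (0.17) and Zfp326 (0.20), and for Fgfr3 (1.21) they were Loxl1 (0.32), Sct (0.32) and Plvap (0.34).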

How the data were processed

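RNA from 11 ES cell samples was hybridised to Agilent one-colour (Cy3) arrays, 1 array per sample. The deposited scanner intensities are linear; Agilent Feature Extraction 11.0.1.1 had subtracted background and spatial trend, and nothing had been scaled between arrays, per the file headers. In 9 of 11 files they are held to 3 significant digits. The authors' deposited value table holds intensities on a linear scale whose column medians lie between 46.5 and 47.7; how it was normalized was not given in the sources used, and it served as an alternative.

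Unflagged spots were averaged per probe, and log2 intensities were set relative to the 75th percentile of their array. Probes named through RefSeq accessions (gene table of GRCm38.p6, used for names and neighbours only, since the probes were designed on mm9 per the file headers) entered if well above background on at least 3 arrays. The brightest probe on average stood for a gene. One linear model over all 11 arrays without covariates (limma 3.58.1 in R 4.3.3; 8 residual and 3.52 prior degrees of freedom) gave the 3 comparisons, two-sided, with Benjamini-Hochberg adjustment over 16279 genes or 21274 probes and a threshold of 0.05. A fold written "at least" is a bound for a probe on no array of the dim medium well above background. The small number of arrays limits precision. The test was checked on simulated data.

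The 8 genes and the lists were chosen with earlier results of these data known. Single markers of cell types were named after their values had been seen. The text names the 8 members, Fgf5, up to 3 called genes of each list and comparison with the largest change, Fgf13, Fgf18, Il17rd and Etv5 (after their values had been seen), and the 3 most alike genes of members with a call, of which 1 is not reported here. Alternatives were normexp correction with an offset of 50 (on median signals, which the files hold in place of mean signals), quantile normalization, the value table, 2 other filters, the mean of a gene's probes, slide, scan day, replicate number and cell line as blocks, single scan days, and arrays left out. List counts and the calls of list genes under these were added after the data had been seen. Replicate numbers did not pair the samples: deviations from the medium means correlated at -0.20 to 0.18 between same-numbered arrays, and 2 of 9 pairs exceeded 0.1.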

Additional observations from a re-analysis of the deposited data

Results flagged for a closer look

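One array stood apart within 2i/LIF on 1 of the 14 probes. The Fgfr1 probe A_55_P1967015 read 1 on 2i/LIF replicate 2, while the other 4 arrays of that medium lay between -0.19 and 0.13 (log2 relative to the 75th percentile). The gap took up 0.73 of the group's range, above Dixon's critical value of 0.71 for 5 samples. Chance flags about 1 in 20 groups, and 14 were examined here. The same array had the lowest level of the brightest Fgfr1 probe and the highest level of Fgf17 within 2i/LIF.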

How the results depend on the processing

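Arrays are few and dim probes limit what can be measured. The calls of Fgf15 and Fgfr3 in both comparisons of 2i/LIF held under every alternative that could be tested; the second scan day, with 1 array of 2i/LIF, 1 of KOSR/LIF and none of serum/LIF, gave no test. Fgf4 against KOSR/LIF lost its call only with a replicate block (0.96, adjusted p = 0.0731), and no member was then higher there (0). The replicate block also ended both Fgfr2 calls (-0.85, adjusted p = 0.12, and -0.89, adjusted p = 0.117) and left 3 probes called in each comparison of 2i/LIF; the numbers do not pair the samples.

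For members of KOSR/LIF against serum/LIF, 1 was higher with slide as a block, within scan day 1 and without 2i/LIF replicates 1 and 5 together. Of them 1 was lower with scan day or slide as a block and 2 within scan day 1. Leaving out single arrays gave 0 to 1 higher and 0 to 1 lower. Probes called there numbered 1 with scan day as a block, 2 with slide as a block, 3 within scan day 1 and 0 to 2 without single arrays. In 2i/LIF against serum/LIF 2 probes passed with normexp, 3 within scan day 3, 3 without 2i/LIF replicates 1 and 5 and 3 to 6 without single arrays. In 2i/LIF against KOSR/LIF 3 passed with normexp and 4 to 6 without single arrays.

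Directions that turned all belong to differences that did not pass. For Fgf8 they were 0.31 with the replicate block and 0.0053 within scan day 1 (2i/LIF against serum/LIF; -0.41 to 0.18 without single arrays). In KOSR/LIF against serum/LIF Fgf8 was -0.38 in the deposited table, -0.46 with slide as a block and -0.45 within scan day 1 (-0.80 to 2.13 without single arrays), and in 2i/LIF against KOSR/LIF 0.22, 0.44 and 0.45 (-2.31 to 0.62). For Fgfr1 they were 0.039 with the mean of probes, 0.051 within scan day 1 and 0.040 within scan day 3 in 2i/LIF against serum/LIF (-0.43 to 0.0028 without single arrays). They were -0.16 with normexp, -0.19 with slide as a block and -0.15 within scan day 1 in KOSR/LIF against serum/LIF (-0.072 to 0.14), and 0.17 with slide as a block and 0.20 within scan day 1 in 2i/LIF against KOSR/LIF. Fgfr2 in KOSR/LIF against serum/LIF was -0.17 with the mean of probes, -0.049 with quantile normalization, -0.082 with scan day, -0.13 with slide as a block and -0.052 within scan day 1 (-0.020 to 0.11 without single arrays). Fgf17 in 2i/LIF against KOSR/LIF was -0.25 with normexp (-0.11 to 0.81 without single arrays), and Fgfr4 in 2i/LIF against serum/LIF was -0.21 within scan day 3. Among second probes, normexp gave 0.17 for Fgf8 and 0.29 for Fgfr2 in KOSR/LIF against serum/LIF. For Fgfr3 the second probe was 0.051 with normexp, 0.093 with the replicate block and 0.27 within scan day 3 in 2i/LIF against serum/LIF (-0.18 to 0.10 without single arrays) and -0.0039 in the deposited table in KOSR/LIF against serum/LIF. For Fgfr4 it was 0.26 with normexp and 0.027 with slide as a block in KOSR/LIF against serum/LIF, and -0.11 with normexp in 2i/LIF against KOSR/LIF. The cause was not tested in any of these.

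Over all genes, calls in 2i/LIF against serum/LIF numbered 2722, and 1755 with normexp, 1129 within scan day 3, 3489 in the deposited table and 3743 with slide as a block. In KOSR/LIF against serum/LIF they numbered 745, and 374 with normexp, 451 without a filter and 221 to 929 without single arrays. In 2i/LIF against KOSR/LIF they numbered 2388, and 1517 with normexp and 1408 with the replicate block.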
